A study of Mus musculus with 2 samples.

Results

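The genes described here are 6 that carry glucose into a cell or decide how much of it is held there as glucose 6-phosphate: Slc2a1, Slc2a2, Slc2a3, G6pc2, Hk1 and Hk2. They were taken by name from the 33038 genes listed in either of 2 single-cell libraries of dissociated mouse pancreatic islets. Their levels were compared between cells grouped by which of insulin (Ins1 plus Ins2), Gcg, Sst and Ppy reached 1% of the transcripts of a cell, per library. No value of these 6 genes took part in the grouping. The islets came from C57BL/6J mice of 8 weeks, labelled as controls with no treatment compared, and were dissociated to single cells. Each cell was coupled to a barcoded bead in a reversible hydrogel (RevGel-seq), and 10000 cells were loaded per library. Library 1 held 735 cells and library 2 held 748. By the study's methods both are technical replicates prepared from a single batch of islet cells, so the spread between them holds no difference between animals.

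Glucose crosses the membrane of mammalian cells through facilitative transporters of the Slc2a family and is then phosphorylated by a hexokinase, which keeps it inside. In insulin cells of the mouse the transporter is mainly GLUT2, the product of Slc2a2, which carries glucose at a rate that follows its concentration in blood. G6pc2 encodes a glucose-6-phosphatase catalytic subunit of islets that removes the phosphate again. Slc2a1 and Slc2a3 encode GLUT1 and GLUT3, transporters of high affinity, and Hk1 and Hk2 encode hexokinases that are already saturated at low glucose.

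Of the 6 genes, Slc2a2 and G6pc2 were both highest in insulin-only cells, and Hk2 was almost confined to cells without a hormone. The 250 bases upstream of the annotated starts of these 3 genes are shown for that reason, as RefSeq gives them for GRCm38.p6 and 5′ to 3′ on the strand of the gene. Slc2a2 starts after chr3:28697653-28697902 on the plus strand, G6pc2 after chr2:69210823-69211072 on the plus strand (the first of 2 starts listed for it), and Hk2 before chr6:82774455-82774704 on the minus strand. Capitals mark the E-box CANNTG and the homeobox core TAAT, each searched on both strands. No E-box overlapped a TAAT.
Slc2a2: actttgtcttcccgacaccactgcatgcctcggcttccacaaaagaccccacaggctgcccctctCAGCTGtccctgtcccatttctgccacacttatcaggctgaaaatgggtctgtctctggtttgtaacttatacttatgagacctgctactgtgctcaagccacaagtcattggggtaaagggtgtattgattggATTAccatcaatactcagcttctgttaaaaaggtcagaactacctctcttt
G6pc2: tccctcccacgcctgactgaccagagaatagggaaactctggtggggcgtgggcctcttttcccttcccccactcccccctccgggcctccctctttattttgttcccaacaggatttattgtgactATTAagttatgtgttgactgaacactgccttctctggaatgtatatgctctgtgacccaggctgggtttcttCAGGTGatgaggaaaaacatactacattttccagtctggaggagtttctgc
Hk2: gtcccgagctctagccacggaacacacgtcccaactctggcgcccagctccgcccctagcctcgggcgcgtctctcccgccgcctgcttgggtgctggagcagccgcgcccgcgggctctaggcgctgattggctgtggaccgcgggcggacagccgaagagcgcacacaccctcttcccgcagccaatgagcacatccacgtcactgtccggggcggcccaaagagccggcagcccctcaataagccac
The Slc2a2 and G6pc2 windows each held 1 E-box and 1 TAAT, and the Hk2 window held 0 of either. The window of the second start listed for G6pc2, chr2:69219699-69219948, held 4 E-boxes and 3 TAAT at 46% G and C. These short motifs are common: over 32851 upstream windows of the same length, 66.2% held CANNTG and 54.9% held TAAT. Base composition also differed. Slc2a2 had 47.2% G and C with 2 CpG, G6pc2 had 50% with 3 CpG, and Hk2 had 69.6% with 25 CpG and 3 matches of GGGCGG, against a median of 52.4% G and C and 6 CpG over all windows. None of the 3 windows held TATAAA, which 12.4% of all windows held. The entry for Slc2a1 was 66.4% G and C, and those for both starts of Hk1 were 49.6% and 62.8%. Slc2a3 was not found in that table. A match of letters is a description of sequence and not a binding site.

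In the GENCODE M21 annotation of GRCm38, Slc2a1 (ENSMUSG00000028645) lies at chr4:119108711-119137983, Slc2a2 (ENSMUSG00000027690) at chr3:28697903-28731359 and G6pc2 (ENSMUSG00000005232) at chr2:69211073-69227841, all on the plus strand. Slc2a3 (ENSMUSG00000003153) at chr6:122727809-122801640, Hk1 (ENSMUSG00000037012) at chr10:62268855-62379908 and Hk2 (ENSMUSG00000000628) at chr6:82725025-82774454 lie on the minus strand. Counts were of reads in exons. Antisense genes are annotated over Slc2a1 (Gm12867 and Gm12868), Slc2a2 (1700112D23Rik), Hk1 (Hk1os) and Hk2 (Gm17034). In addition, a microRNA gene (Mir1957a) lies on the strand of Slc2a1, and a processed pseudogene (Gm4482) on that of Slc2a3. The strand setting of the counting was not given in the sources used here, so reads of these pairs cannot be told apart. No annotated gene overlaps G6pc2.

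Of 1483 cells, 372 reached the threshold for insulin only (182 in library 1 and 190 in library 2), 356 for Gcg only (182 and 174), 58 for Sst only (35 and 23) and 122 for Ppy only (54 and 68). A further 151 had Gcg and Ppy (65 and 86), 148 had Sst and Ppy (77 and 71), 64 had insulin plus another hormone (37 and 27) and 183 had no hormone (91 and 92). The remaining 29 cells had other combinations of Gcg, Sst and Ppy. Levels are given as CPM, the UMIs (unique molecular identifiers, deduplicated transcripts) of a gene per 1000000 UMIs of all genes other than the 5 hormone genes. The summed level of 6 markers of insulin cells (Iapp, Ucn3, Mafa, Nkx6-1, Pdx1 and Slc30a8) was 53068 and 54502 CPM in insulin-only cells of libraries 1 and 2, 1997 and 1881 in Gcg-only cells and 15288 and 15525 in Sst-only cells. Iapp made up 48332 and 49627 CPM of the first. Other members of that list were shared between groups: Slc30a8, a zinc transporter of islet cells, was 1305 and 1282 CPM in insulin-only and 1270 and 1319 CPM in Gcg-only cells, and Pdx1 in Sst-only cells stood at 45.6% and 45.9% of its insulin-only level. The 6 markers of Gcg cells summed to 46010 and 47582 CPM in Gcg-only cells and to 1533 and 1618 in insulin-only cells. The 4 of Sst cells summed to 6878 and 6799 CPM in Sst-only cells and to 500.1 and 614 in insulin-only cells. The hormones were left out of the total because they made up between 0.301% of UMIs in cells without a hormone and 41.4% in insulin-only cells. The least deep cell had 3925 non-hormone UMIs, and the summed groups had between 298300 and 2823605. The libraries shared 0 barcodes. Doublets were called in 15 cells (1.01%) and were kept.

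Slc2a2 stood at 653 CPM in insulin-only cells of library 1 and 739 CPM in those of library 2 (696 ± 60.9, SD, n = 2). In cells with insulin plus another hormone it was 336 and 435 CPM (385 ± 69.9), and in cells without a hormone 45.9 and 12.5 CPM (29.2 ± 23.6). In Gcg-only cells it was 5.71 and 2.48 CPM, in Sst-only cells 2.20 and 10.1 CPM, and in Ppy-only cells 3.44 and 0.586 CPM. Gcg and Ppy cells had 5.38 and 2.09 CPM, and Sst and Ppy cells 2.79 and 2.74 CPM. The insulin-only values did not overlap with those of any other group, and the order of the groups below the cells without a hormone lay within the spread of the libraries. The fitted difference from Gcg-only cells was 7.42 on the log2 scale (SE 0.43, adjusted p = 1.22e-09), from Sst-only cells 7.14 (SE 0.59, adjusted p = 2.58e-07) and from Ppy-only cells 8.60 (SE 0.53, adjusted p = 4.69e-09).

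G6pc2 showed the same order at the top. It was 1896 and 1918 CPM in insulin-only cells (1907 ± 15.5) and 827 and 553 CPM in cells with insulin plus another hormone (690 ± 194). Gcg and Ppy cells followed with 29.6 and 37.6 CPM (33.6 ± 5.65), then Gcg-only cells with 24.0 and 12.0 CPM (18.0 ± 8.45). Ppy-only, Sst and Ppy, Sst-only and no-hormone cells had means between 7.40 and 9.06 CPM, which did not differ beyond their spread. The insulin-only level was higher than in Gcg-only cells by 6.75 on the log2 scale (SE 0.32, adjusted p = 1.27e-10), than in Ppy-only cells by 7.89 (SE 0.37, adjusted p = 2.43e-10) and than in Sst-only cells by 8.02 (SE 0.45, adjusted p = 2.9e-09). Of the 23 G6pc2 UMIs in Ppy-only cells, 12 came from a single cell of library 1.

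Slc2a3 went the other way. Insulin-only cells held 2 UMIs of it in library 1 and 0 in library 2, or 0.738 and 0 CPM. In Gcg-only cells it was 16.4 and 13.8 CPM (15.1 ± 1.81), in Sst-only cells 22 and 20.1 CPM (21.0 ± 1.32) and in Ppy-only cells 16.3 and 13.5 CPM (14.9 ± 2.01). Gcg and Ppy cells had 12.5 and 13.2 CPM, Sst and Ppy cells 14.0 and 10.1 CPM, and cells with insulin plus another hormone 4.14 and 3.53 CPM. Cells without a hormone had the highest mean, at 19.5 and 34.7 CPM (27.1 ± 10.8), but lay below Sst-only cells in library 1. This first place rested on 1 cell with 41 of the 106 UMIs. Without it the group had 19.5 and 17.2 CPM, below Sst-only cells in both libraries. Every group lay above the insulin-only cells in both libraries, and the Gcg-only and Ppy-only values overlapped. Over the summed counts, Slc2a3 was 38.3-fold higher in Gcg-only than in insulin-only cells (95% interval of counting error 10.3 to 321), 54.0-fold higher in Sst-only (12.7 to 484) and 37.2-fold higher in Ppy-only cells (9.68 to 317). The adjusted p was 1.15e-05, 8.52e-05 and 3.08e-05 in that order. Without equal depth, a UMI of Slc2a3 was found in 13.8% of Gcg-only cells (49 of 356) and in 0.538% of insulin-only cells (2 of 372, 95% exact interval 0.0652% to 1.93%). With each cell thinned to 2000 non-hormone UMIs the shares were 1.40% (0.458% to 3.25%) and 0% (0% to 0.987%), so that their intervals overlapped. Thinned to 4000 UMIs they were 5.06% (3.02% to 7.87%) and 0.270% (0.00682% to 1.49%), and the intervals did not overlap.

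Hk1 was low in insulin and in Sst cells. It was highest in cells without a hormone, at 46.5 and 86.2 CPM (66.3 ± 28.0). It was 28.6 and 34.0 CPM in Gcg-only cells (31.3 ± 3.84), 25.8 and 22.9 CPM in Ppy-only cells (24.3 ± 2.06) and 34.9 and 21.6 CPM in Gcg and Ppy cells (28.3 ± 9.47). In Sst and Ppy cells it was 8.37 and 5.49 CPM, in Sst-only cells 6.59 and 0 CPM, in cells with insulin plus another hormone 2.76 and 1.77 CPM and in insulin-only cells 2.95 and 0.842 CPM. Gcg-only, Ppy-only and Gcg and Ppy cells did not overlap with the 4 groups below them. Among those 4, Sst and Ppy cells lay above both insulin groups, and Sst-only cells spanned them. Insulin-only cells were lower than Gcg-only cells by 3.92 on the log2 scale (SE 0.49, adjusted p = 1.24e-05) and lower than Ppy-only cells by 3.54 (SE 0.53, adjusted p = 0.000116). Against Sst-only cells, with 3 UMIs, the summed counts in Gcg-only cells were 7.88-fold higher (95% interval of counting error 2.65 to 38.6, adjusted p = 0.0097) and those in Ppy-only cells 6.04-fold higher (1.98 to 30.0, adjusted p = 0.0405). The last call was lost when any single sum of either group was left out (adjusted p from 0.0765 to 0.209) and under DESeq2 (adjusted p = 0.0672), and the one before it was lost without the Sst-only sum of library 2 (adjusted p = 0.085).

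In the 4 groups low in Hk1, 15 of its 31 UMIs sat in cells that also carried at least 20 UMIs of endothelial or leukocyte markers. These were 8 of 10 in insulin-only cells, 3 of 3 in Sst-only cells, 4 of 15 in Sst and Ppy cells and 0 of 3 in cells with insulin plus another hormone. Of the 10 Hk1 UMIs in insulin-only cells, 7 came from 1 cell with 142 UMIs of leukocyte markers and 12.9% insulin, and the only Hk2 UMI of the group was in the same cell. All 3 Hk1 UMIs of Sst-only cells came from 1 cell with 263 UMIs of endothelial markers. The 3 Hk2 UMIs of Gcg and Ppy cells came from 1 cell with 72 UMIs of leukocyte markers. Removing the 15 hormone cells with at least 20 UMIs of either marker list, an alternative chosen after seeing the data, left 2 Hk1 UMIs in insulin-only cells, which lost 6 cells (0.389 and 0.428 CPM), 0 in Sst-only cells and 0 Hk2 UMIs in every hormone group. Gcg-only cells then kept 28.3 and 32.7 CPM of Hk1 and Ppy-only cells 25.8 and 22.1 CPM. Slc2a2 and G6pc2 in insulin-only cells were 679 and 739 CPM and 1958 and 1934 CPM after the removal.

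Hk2 was detected in cells without a hormone at 27.0 and 23.6 CPM (25.3 ± 2.41; 43 and 51 UMIs). Gcg-only, Sst-only, Ppy-only, Sst and Ppy and insulin-plus cells had 0 UMIs in both libraries, and the 372 insulin-only cells had 1. Counting a group with 0 UMIs as 3, the level in cells without a hormone was at least 45.5-fold higher than in Gcg-only cells, at least 24.0-fold higher than in Ppy-only cells and at least 6.30-fold higher than in Sst-only cells over the group. The 0 of 356 Gcg-only cells with a UMI allowed a share of up to 0.843% of cells with a UMI at this depth, counting 0 as 3.

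Slc2a1, the gene of the transporter found in most cell types, was 67.3 and 57.0 CPM in cells without a hormone (62.1 ± 7.28). Sst and Ppy cells had 15.8 and 14.6 CPM, cells with insulin plus another hormone 8.29 and 21.2 CPM, and Gcg and Ppy cells 8.96 and 9.04 CPM. Sst-only cells had 15.4 and 20.1 CPM (17.7 ± 3.35), Ppy-only cells 10.3 and 14.7 CPM (12.5 ± 3.07), insulin-only cells 9.23 and 8.42 CPM (8.82 ± 0.569) and Gcg-only cells 5.33 and 10.3 CPM (7.80 ± 3.49). No contrast between 2 single-hormone groups passed the test for Slc2a1, except insulin-only against Sst-only cells when all UMIs, hormones included, served as totals (-1.54 on the log2 scale, adjusted p = 0.0303, against -0.83 and 0.318). The median of all genes shifted to -0.68 with those totals. The interval of the ratio of summed counts ran from 0.722 to 1.74 for insulin-only over Gcg-only cells and from 0.272 to 1.04 for insulin-only over Sst-only cells. Those for insulin-only over Ppy-only cells (0.434 to 1.09) and Sst-only over Ppy-only cells (0.653 to 2.58) also included 1. Those for Gcg-only over Sst-only cells (0.241 to 0.927) and Gcg-only over Ppy-only cells (0.385 to 0.977) did not. The intervals cover counting error only, so moderate differences were neither established nor excluded.

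**Figure D1:**
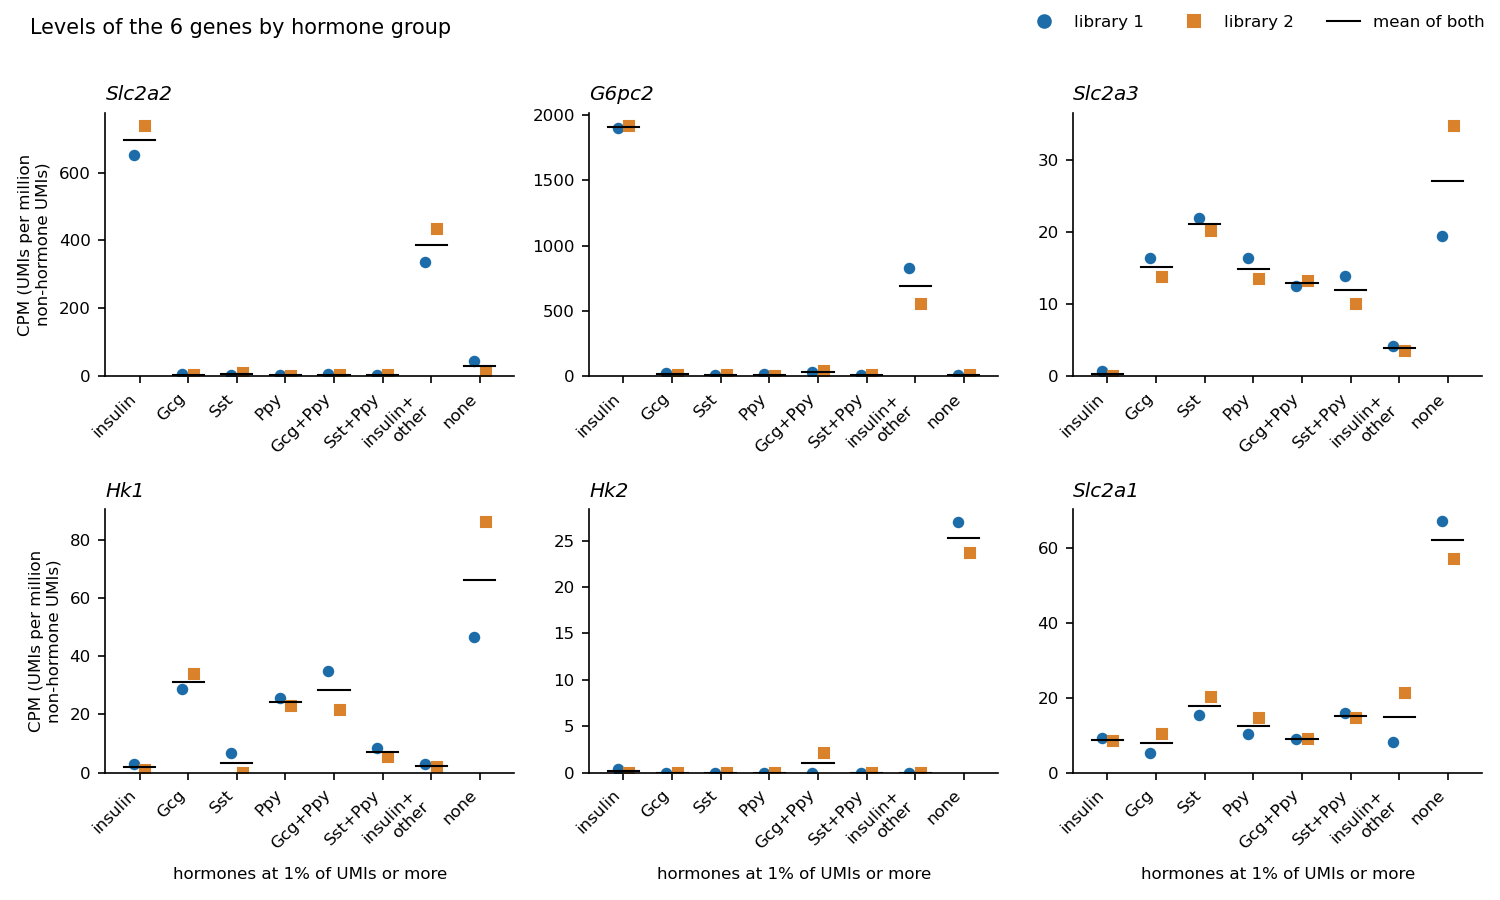
CPM (UMIs per 1000000 non-hormone UMIs, linear axes that start at 0 and differ between panels) of Slc2a2, G6pc2, Slc2a3, Hk1, Hk2 and Slc2a1 in 8 hormone groups, with a circle for library 1, a square for library 2 and a line at their mean. Slc2a2 and G6pc2 are high in insulin-only cells and intermediate in cells with insulin plus another hormone, Hk1 and Slc2a3 are near 0 in insulin-only cells, and Hk2 is seen in cells without a hormone.

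Across all 14528 genes tested with edgeR's quasi-likelihood test and Benjamini-Hochberg adjustment, the contrast of insulin-only with Gcg-only cells called 25.6%, insulin-only with Sst-only 14.7% and insulin-only with Ppy-only 20.7%. All 6 genes passed the filter on low counts, Hk2 only through the cells without a hormone. The calls among the 6 in these contrasts were 4, 3 and 4: Slc2a2 and G6pc2 upward and Slc2a3 downward in each, and Hk1 downward in the first and the last. Hk1 against Sst-only cells had an adjusted p of 0.695, with 10 and 3 UMIs. Between the groups without insulin the calls were fewer. Gcg-only against Sst-only cells called 12.8% of all genes and 1 of the 6, Hk1. Sst-only against Ppy-only cells called 9.47% and 1 of the 6, again Hk1. Gcg-only against Ppy-only cells called 9.86% and 0 of the 6, and 0 of the 6 with DESeq2. At an unadjusted p under 0.05 there was 1 of the 6, G6pc2, where 3237 of all 14528 genes were. With 2 libraries per group of 1 preparation, these p-values measure technical spread.

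The share of cells with a UMI gave the same picture at 1 depth for G6pc2 and Slc2a2. After each cell had been thinned to 2000 non-hormone UMIs, G6pc2 was found in 90.7% of insulin-only cells of library 1 and 87.9% of library 2, against 97.3% and 97.4% before thinning. Slc2a2 was found in 57.1% and 63.2%, against 89.0% and 93.7%. In cells with insulin plus another hormone the thinned shares were 40.5% and 44.4% for G6pc2 and 24.3% and 29.6% for Slc2a2. In Gcg-only cells they were 3.30% and 2.87% for G6pc2 and 1.65% and 0.575% for Slc2a2. Insulin-only cells thus separated from Gcg-only cells for both genes, with exact intervals over both libraries of 85.6% to 92.2% and 1.55% to 5.46% for G6pc2.

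The low levels of Slc2a2 and G6pc2 outside insulin cells were set beside those of insulin itself, which the threshold of 1% held down in every group without insulin, while it set no bound on the other genes. In Gcg-only cells, insulin stood at 0.433% and 0.321% of its insulin-only level, Slc2a2 at 0.876% and 0.336%, and G6pc2 at 1.27% and 0.628%. In Gcg and Ppy cells, insulin stood at 0.417% and 0.334%, Slc2a2 at 0.824% and 0.282%, and G6pc2 at 1.56% and 1.96%. In cells without a hormone, insulin stood at 0.340% and 0.217% and G6pc2 at 0.365% and 0.411%. Other insulin-cell genes spread widely on this scale in Gcg-only cells: Mafa stood at 0.131% and 0.291%, Ucn3 at 0.417% and 0.401%, Iapp at 1.31% and 0.986%, Pdx1 at 1.92% and 0.422%, Nkx6-1 at 6.03% and 4.31%, and Slc30a8 at 97.3% and 102.9%. The range of these genes, from Mafa to Slc30a8, was too wide to place the G6pc2 values of Gcg-only cells by it. RNA from outside the cells was not measured, and the low levels were not told apart from background. Before thinning, a UMI of G6pc2 was found in 30.8% and 27.9% of Gcg and Ppy cells and in 8.79% and 9.78% of cells without a hormone, at median depths of 14894 and 14039 non-hormone UMIs over both libraries. In Gcg-only cells the Slc2a2 percentage rested on 15 and 7 UMIs.

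**Figure D2:**
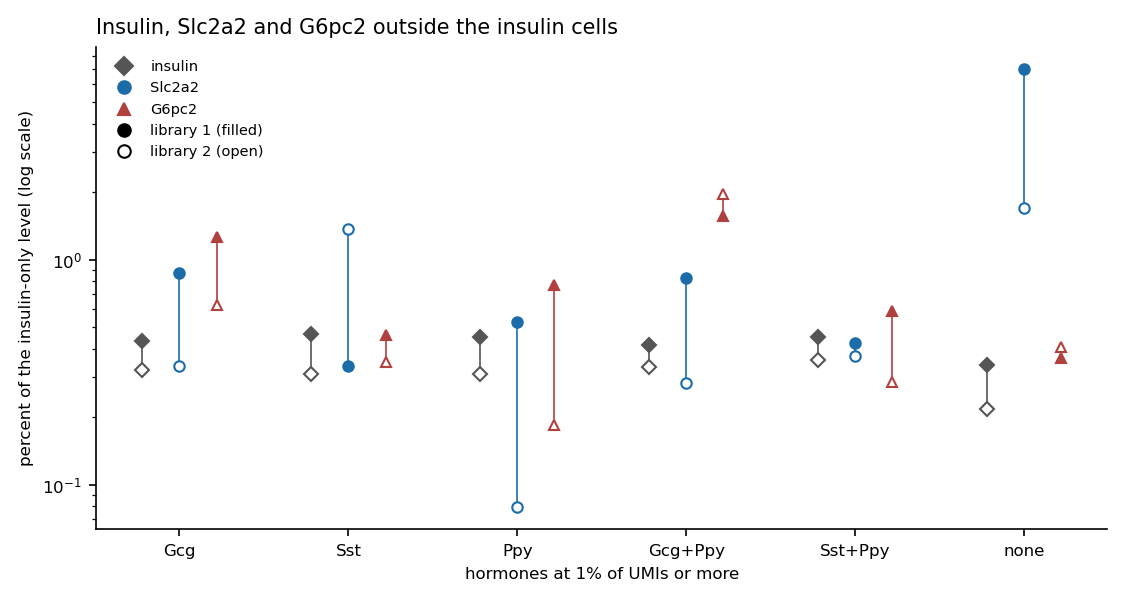
Level of insulin (diamonds), Slc2a2 (circles) and G6pc2 (triangles) in 6 hormone groups without insulin, as percent of the level in insulin-only cells of the same library on a log axis, with filled symbols for library 1 and open symbols for library 2. Insulin, which the threshold held down, lies between 0.217% and 0.468% in all 6 groups, while G6pc2 reaches 1.56% and 1.96% in Gcg and Ppy cells and Slc2a2 7.03% and 1.69% in cells without a hormone.

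Cells with both Gcg and Ppy were compared with Gcg-only cells to see whether the second hormone goes with a change in these genes. G6pc2 was 29.6 and 37.6 CPM against 24.0 and 12.0 CPM, so that the groups did not overlap, with a fitted difference of 0.91 on the log2 scale (SE 0.36) that did not pass the test (adjusted p = 0.783). None of the 6 genes was called, where 0.0344% of all genes were. At an unadjusted p under 0.05, 2 of the 6 (G6pc2 and Hk2) stood out, where 814 of all 14528 genes did, and DESeq2 called 0. The 3 Hk2 UMIs came from 1 cell of library 2 with 72 UMIs of leukocyte markers. In Sst and Ppy against Sst-only cells 0 of the 6 were called as well, where 0.0138% of all genes were. At an unadjusted p under 0.05 there were 0 of the 6 and 933 of all 14528 genes, and DESeq2 called 0 of the 6. The ratio of summed G6pc2 counts in that pair had an interval of 0.396 to 3.21, and that of Slc2a3 one of 0.292 to 1.13. In Gcg and Ppy over Gcg-only cells the G6pc2 ratio was 1.91, with an interval of 1.42 to 2.58, and that of Slc2a3 had one of 0.555 to 1.30. These intervals cover counting error only.

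Cells with insulin plus another hormone had less G6pc2 than insulin-only cells. The fitted difference was a fall by 1.48 on the log2 scale (SE 0.25, adjusted p = 0.00194), with 827 and 553 CPM against 1896 and 1918 CPM and no overlap. The call was lost without the sum of library 2 of the mixed group (adjusted p = 0.069) and under DESeq2 (adjusted p = 0.0593). Slc2a2 was lower by 0.87 on the log2 scale (SE 0.29) and did not pass the test (adjusted p = 0.146), although it did when the fit held only these groups (adjusted p = 1.45e-05). The share called was 1 of the 6 genes and 2.55% of all genes. Insulin itself stood at 52.1% and 42.2% of its insulin-only level, and the mixed cells had a median of 16190.5 non-hormone UMIs against 10891.5. Markers of some other cell types were higher in the mixed cells and those of others lower. Those of Gcg cells summed to 3679 and 4231 CPM in the mixed cells against 1533 and 1618 in insulin-only cells, those of Sst cells to 1906 and 1763 against 500.1 and 614, and those of acinar cells to 251 and 219 against 7.01 and 11.8. Leukocyte markers were lower, at 6.91 and 7.07 CPM against 63.9 and 89.3. So were stellate markers (8.29 and 0 against 36.2 and 5.47) and endothelial markers (170 and 31.8 against 206 and 34.5). The insulin-only sums of these markers rested in part on few cells: a single cell of library 1 held 142 UMIs of leukocyte markers. At least 20 UMIs of endothelial or leukocyte markers were found in 6 of the 372 insulin-only cells and 1 of the 64 mixed cells. Of the 15 called doublets, 5 were among the 64 mixed cells and 1 among the 372 insulin-only cells. With called doublets removed, G6pc2 fell by 1.41 on the log2 scale (SE 0.24, adjusted p = 0.00228). The calls included only 3 of the 15 hormone cells with at least 20 UMIs of endothelial or leukocyte markers. Doublets may thus remain, and this removal cannot show the difference without them. The part of the other markers in the difference was not tested. Of the 64 mixed cells, 52 had insulin as their largest hormone. In these 52, G6pc2 was 935 and 673 CPM and Slc2a2 377 and 535 CPM. G6pc2 had no UMI in 10 of the 52, and Slc2a2 none in 18. In the 6 cells whose largest hormone was Gcg, Slc2a2 had 0 UMIs and G6pc2 5.

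Single insulin-only cells differed widely. Slc2a2 had a median of 668 CPM over cells of library 1, with a range from 0 to 2149 CPM, and 671 CPM in library 2, with a range from 0 to 2347 CPM. For G6pc2 the medians were 1730 and 1850 CPM, with maxima of 6043 and 8351 CPM. Both genes had a UMI in 88.5% and 92.6% of these cells. The rank correlation of their CPM over cells was 0.455 in library 1 (n = 182 cells) and 0.412 in library 2 (n = 190), and 0.752 (n = 37) and 0.747 (n = 27) in cells with insulin plus another hormone. These cells share a library and a range of depths. When insulin-only cells were divided at the median insulin share of their library (38.7% and 41.5% of UMIs), G6pc2 was 1718 CPM in the lower and 2174 CPM in the upper part of library 1, and 1632 and 2347 CPM in library 2. Slc2a2 did not keep a direction, with 577 and 769 CPM in library 1 and 757 and 711 CPM in library 2. Cells in the upper parts had fewer non-hormone UMIs, with medians of 9533 and 8053 against 15484 and 13001.

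**Figure D3:**
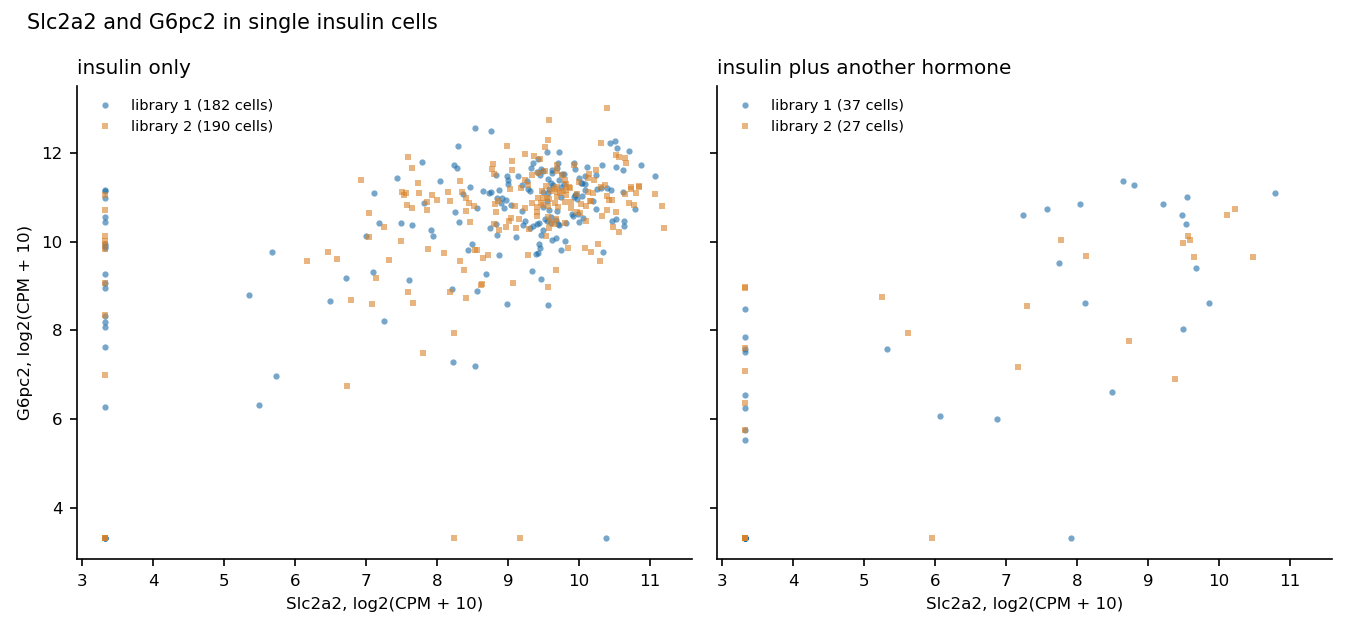
Each point is 1 cell, with log2(CPM + 10) of Slc2a2 on the horizontal and of G6pc2 on the vertical axis, for insulin-only cells (left) and cells with insulin plus another hormone (right), in blue circles for library 1 and orange squares for library 2. Points at the lower left corner have no UMI of either gene, which were 4 and 3 of the insulin-only cells and 9 and 5 of the mixed cells in libraries 1 and 2.

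Cells without a hormone differed from the mean of the 4 single-hormone groups in all 6 genes, in a contrast that called 59.9% of all genes, so that a call says little in itself. Hk2 passed the filter on low counts only through this group, with 43 and 51 UMIs, so its call is no support. Hk2, Hk1 (3.07 on the log2 scale, SE 0.30), Slc2a1 (2.62, SE 0.23) and Slc2a3 (2.15, SE 0.31) were higher and G6pc2 was lower (-2.21, SE 0.46), with adjusted p from 4.12e-08 for Slc2a1 to 0.000516 for G6pc2. The contrast is with a mean of 4 log levels, so that 1 group can carry it. For G6pc2 this group was the insulin-only cells: the ratio of summed counts was 0.00392 against them but 0.938 against Sst-only cells (95% interval of counting error 0.381 to 2.77) and 0.932 against Ppy-only cells (0.517 to 1.69). For Slc2a3 the ratio was 71.9 against insulin-only cells and 1.33 against Sst-only cells (0.783 to 2.41), and the fitted difference was 1.58 without the largest cell. Slc2a2 was called upward (1.25, SE 0.46, adjusted p = 0.0276), where 3 of the 4 levels were low. Against insulin-only cells alone Slc2a2 was lower, at a ratio of summed counts of 0.0385 (95% interval of counting error 0.0312 to 0.0470). This call was lost in 8 of 23 alternatives: without the no-hormone sum of library 1 (adjusted p = 0.809), the Gcg-only sum of library 2 (0.0673), the Sst-only sum of library 1 (0.118) or the Ppy-only sum of library 2 (0.131), under DESeq2 (0.0627), with library totals in place of TMM (0.0502), at a hormone threshold of 0.5% (0.0509) and with only the groups compared (0.0647).

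The group without a hormone held several cell types, which were separated by counts of endothelial and leukocyte markers. With at least 5 UMIs of the larger list, 30 and 35 cells had endothelial markers, 42 and 40 had leukocyte markers and 19 and 17 had fewer of either. Of the 183 cells, 8 lay at 3 to 7 UMIs. The cells with endothelial markers had 141 and 96.9 CPM of Slc2a1 and 100 and 127 CPM of Hk1, with 0 UMIs of Hk2 and of Slc2a2. Rgs5, which the study lists as a marker of activated stellate cells, was 5016 and 694 CPM in this class. Its UMIs lay in 8 of the 65 cells, and whether all cells of the class were endothelial was not tested. The cells with leukocyte markers had 59.0 and 64.2 CPM of Hk2, 40.5 and 25.1 CPM of Slc2a3, 35.4 and 48.6 CPM of Hk1 and 33.7 and 25.1 CPM of Slc2a1. So at this cut Slc2a1 and Hk1 were highest in the first class and Hk2 in the second, in both libraries. In cells with endothelial markers a single cell of library 1 held 51 of the 69 Slc2a1 UMIs, and 11 of 30 cells had any. Without that cell the class had 38.3 CPM in library 1, close to the 33.7 and 35.5 CPM of the other classes. In library 2 a single cell held 34 of the 96 Slc2a1 UMIs, and 13 of 35 cells had any. Slc2a3 in that class was 6.12 and 45.4 CPM. The difference rested on 1 cell of library 2 with 177513 UMIs, 41 of Slc2a3, 61 of Hk1 and 7 of endothelial markers. This cell also had 4 UMIs of leukocyte markers, so it lay near the limit of the class. With at least 10 marker UMIs required, it counted among the cells with fewer marker UMIs. Hk1 in library 2 was then 127 CPM in that class and 79.6 CPM with endothelial markers, so its order depended on the cut. At the cut of 5, the class with endothelial markers had without this cell 4.91 CPM of Slc2a3, 79.9 CPM of Hk1 and 117 CPM of Slc2a1 in library 2. Also without it, Slc2a3 in all cells without a hormone was 19.5 and 17.2 CPM and Hk1 46.5 and 63.1 CPM, and the 6 calls were unchanged.

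Slc2a2 in cells without a hormone came from the class with fewer marker UMIs, at 142 and 51.0 CPM (72 and 27 UMIs in 7 and 4 cells). G6pc2 was at 0 and 18.9 CPM in the same class. The class also had 1074 and 1170 CPM of Krt19 and 1077 and 1211 CPM of Epcam, which mark duct and other epithelial cells, and 118 and 75.6 CPM of Hkdc1, a further hexokinase-family gene. Hkdc1 was at 0 UMIs in the other classes and in 6 of the 7 hormone groups. Slc5a1, a sodium-coupled glucose transporter of epithelia, was 345 and 153 CPM there and at 0 UMIs in the other classes. The cell with most Slc2a2 UMIs of the group had 24 of them with 59 of Krt19, 0 of G6pc2 and 0 of Mafa.

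**Figure D4:**
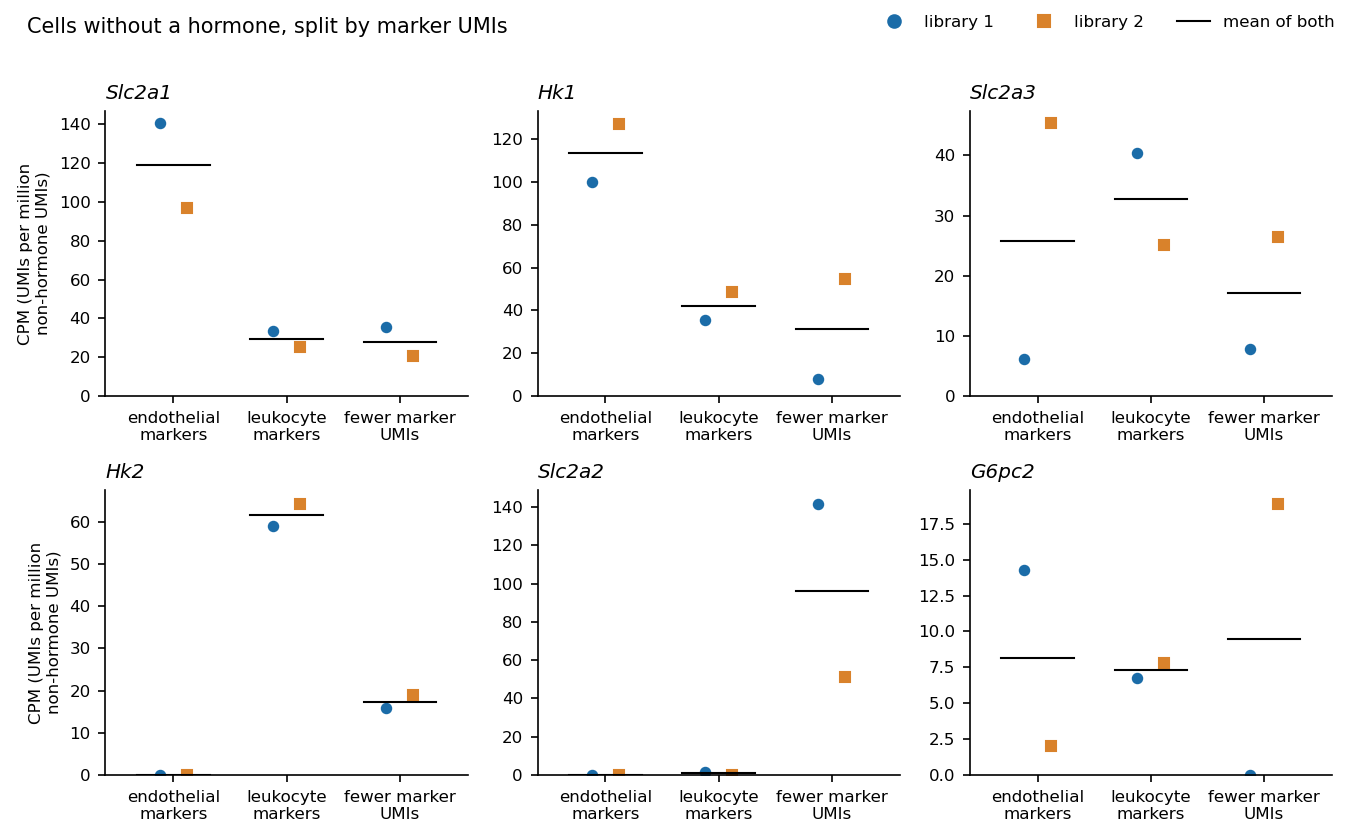
CPM (linear axes that start at 0 and differ between panels) of the 6 genes in cells without a hormone, divided into those with endothelial markers (30 and 35 cells), those with leukocyte markers (42 and 40) and those with fewer marker UMIs (19 and 17), with a circle for library 1, a square for library 2 and a line at the mean. At the cut of 5 marker UMIs shown, Slc2a1 and Hk1 are highest with endothelial markers and Hk2 with leukocyte markers. Slc2a2 is highest in the remaining cells, where the libraries lie apart at 142 and 51.0 CPM. With endothelial markers, 1 cell held 51 of the 69 Slc2a1 UMIs of library 1 and 1 cell 34 of the 96 of library 2.

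Around these genes, 4 lists of the pathway were counted. Between insulin-only and Gcg-only cells, where 25.6% of all genes were called, 2 of 8 tested other glucose transporters were higher in insulin-only cells (Slc2a5, a fructose transporter, by 1.36 and Slc50a1, a sugar exporter family member, by 0.61 on the log2 scale), 0 were lower, and the median difference was 0.52. Of 6 other kinases and genes of glucose 6-phosphate hydrolysis, 2 were higher (Khk, fructokinase, by 1.19 and Slc37a4, the carrier of glucose 6-phosphate into the endoplasmic reticulum, by 0.72) and 0 were lower, with a median of 0.17. Of 11 genes of the first steps after glucose 6-phosphate, 4 were higher (Pfkfb3 by 2.40, H6pd by 1.62, G6pdx by 1.03 and Pfkfb2 by 1.01) and 0 were lower, with a median of 0.26. Of 8 regulators of glucose uptake, 2 were higher (Mlxipl, which encodes the glucose-responsive factor ChREBP, by 4.90 and Tbc1d4 by 2.77) and 2 lower (Arrdc4, by -1.12, and Txnip, by -0.61, both known to restrain glucose uptake), with a median of -0.15. The median over all genes tested was -0.01. The 13 remaining genes of these lists did not pass the filter on low counts.

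Against Sst-only cells, where 14.7% of all genes were called, insulin-only cells were higher in 1 of 8, 2 of 6, 1 of 11 and 3 of 8 genes of the lists in that order and lower in 1, 0, 0 and 0 (Slc2a10, by -3.31 on the log2 scale). Against Ppy-only cells, where 20.7% were called, they were higher in 1, 2, 1 and 1 and lower in 2, 0, 0 and 1 (Slc5a1 by -4.30, Slc5a9 by -2.86 and Txnip by -0.90). Slc2a5, Khk, Slc37a4, Pfkfb2 and Mlxipl were higher in insulin-only cells in all 3 contrasts. Mlxipl was 988 and 984 CPM in insulin-only cells, 501 and 821 CPM in Sst-only cells, 137 and 79.7 CPM in Ppy-only cells and 36.9 and 30.1 CPM in Gcg-only cells. Slc2a5 was 338 and 384 CPM in insulin-only cells and between 137 and 218 CPM in the single-hormone groups without insulin. In the contrasts of Gcg and Ppy with Gcg-only cells, Sst and Ppy with Sst-only cells and insulin plus another hormone with insulin-only cells, 0 genes of the 4 lists were called.

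**Figure D5:**
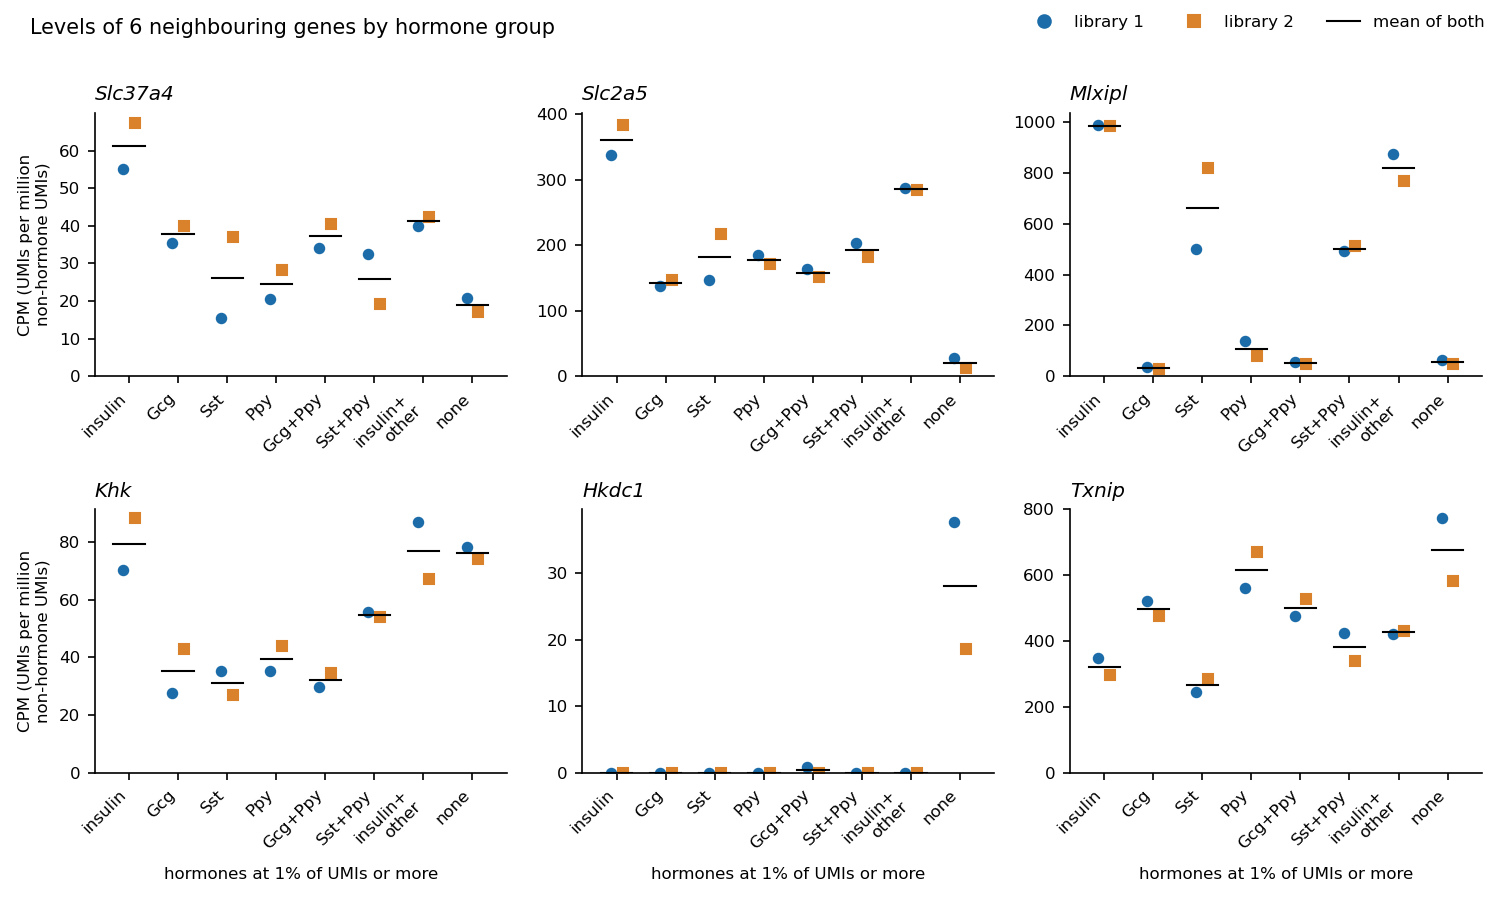
CPM (linear axes that start at 0 and differ between panels) of Slc37a4, Slc2a5, Mlxipl, Khk, Hkdc1 and Txnip in the 8 hormone groups, with a circle for library 1, a square for library 2 and a line at the mean. Slc37a4 is highest in insulin-only cells at 55.0 and 67.4 CPM, Mlxipl is at 30.1 to 36.9 CPM in Gcg-only cells, and Hkdc1 is seen in cells without a hormone.

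Genes with the pattern most like each of the 6 were sought by the Pearson r of log2(CPM + 10) over the 16 sums of 8 groups in 2 libraries, among 4547 genes of at least 50 CPM on average. Those nearest to Slc2a2 were Prlr (r = 0.982), Sytl4 (0.975), Ucn3 (0.970), Trpm5 (0.966) and Mafa (0.965). For G6pc2 they were Mafa (0.979), Prss53 (0.978), Ero1lb (0.973), Trpm5 (0.973) and Sytl4 (0.973), so that Trpm5, Mafa and Sytl4 appeared for both. Hk1 was nearest to Oat (0.943), Eef1b2, Rps18, Nfkbia and Gm42666 (0.933). Slc2a3 was nearest to Tsc22d4 (0.914), Ier2, Ripor1, Pls3 and Timp2 (0.874). Slc2a1 was nearest to Aldh2 (0.968), Crip1, Myadm, Shisa5 and Adam10 (0.940), and Hk2 to Fabp1 (0.994), Dmbt1, Fabp2, Anxa2 and Atp5b (0.975). The sums share their libraries. The no-hormone group stands far from the rest in Slc2a1 and Hk2, and the groups with insulin in Slc2a2 and G6pc2, so these values are descriptions. A sum can pool several cell types, so a high r does not place 2 genes in the same cells. Of the 94 Hk2 UMIs in cells without a hormone, 76 lay in the class with leukocyte markers, and the classes of its nearest genes were not examined.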

How the data were processed

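The authors deposited 1 matrix of whole-number UMI counts per library, made with Cytonaut: cell barcodes by the knee method of UMI-tools, reads in exons assigned to genes after deduplication, on mouse GRCm38 with an Ensembl annotation. The aligner and the strand setting were not given in the sources used here. All 1483 deposited barcodes passed filters of at least 200 genes and at most 20% mitochondrial UMIs. The libraries held 15931154 and 17440292 UMIs, with medians of 17340 and 18922 per cell.

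Counts were summed over the cells of 8 hormone groups in each library (16 sums). Contrasts were fitted over all sums with edgeR 4.0.16 in R 4.3.3 (TMM, filterByExpr, glmQLFit and glmQLFTest, 8 residual degrees of freedom), leaving out the 5 hormone genes, with Benjamini-Hochberg adjustment over 14528 genes and a threshold of 0.05. Ratios of summed counts carry 95% exact intervals and shares of cells exact Clopper-Pearson intervals (SciPy 1.17.1, Python 3.11.15), which, like the floor of 3 counts, cover counting error only. An exact permutation test of 2 against 2 sums cannot go below p = 0.333. Doublets were called with Scrublet in scanpy 1.11.5.

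Genes named are the 6 genes, genes of 4 pathway lists called in a contrast (values for up to 4 per list), and the 5 genes most alike in pattern to each of the 6. Genes, lists and classes were chosen with earlier results of these data known. Genes named outside that rule were chosen after their values were seen. A further gene of the design is not reported here.

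Sums with the same number come from the same library. The correlation of their deviations from the group means over 28 pairs of groups was -0.164 to 0.253 (median 0.0308), over 0.1 in 7 pairs. Alternatives were library totals without TMM, all UMIs as totals, no filter on low counts, hormone thresholds of 0.5%, 2% and 5%, the library as a replicate block, doublets removed, 23 cells in every sum, only the groups compared, each sum left out, and DESeq2 1.42.0. A further 2, the removal of cells with RNA of other cell types and of the largest cell without a hormone, were chosen after seeing the data.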

Additional observations from a re-analysis of the deposited data

Results flagged for a closer look

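The 29 cells with other combinations of Gcg, Sst and Ppy (12 and 17 in libraries 1 and 2) were in no comparison, and 4 of the 6 genes had UMIs in them. They held 15 UMIs of G6pc2 (19.6 and 25.1 CPM), 15 of Hk1 (16.3 and 27.9 CPM), 10 of Slc2a1 (16.3 and 13.9 CPM) and 9 of Slc2a3 (9.80 and 16.7 CPM), and 0 of Slc2a2 and Hk2. G6pc2 stood at 1.03% and 1.31% of its insulin-only level there, where insulin stood at 0.335% and 0.286%.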

How the results depend on the processing

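Counts are of the 6 genes called. The 4 calls of insulin-only against Gcg-only cells and the 4 against Ppy-only cells each became 2 with 23 cells in every sum, where Hk1 was tested and not called (adjusted p = 0.0746 and 0.127) and Slc2a3 did not pass the filter. Slc2a3 was then not tested against Sst-only cells either. In that contrast Slc2a1 was newly called with all UMIs as totals (adjusted p = 0.0303). Gcg-only against Sst-only cells (1) gave 2 at a threshold of 5% and 0 with equal cells. Gcg-only against Ppy-only cells (0) gave 1 without the filter and 1 at 5%. Sst-only against Ppy-only cells (1) gave 0 with all UMIs as totals, at 0.5%, at 2%, with equal cells and with DESeq2. Gcg and Ppy against Gcg-only cells (0) gave 1 without the filter. Insulin plus another hormone against insulin-only cells (1) gave 2 without the filter, 2 with only the groups compared and 0 with DESeq2. The causes were not tested.

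With each sum left out in turn, the counts ran from 0 to 1 for Gcg-only against Sst-only (0 without Sst-only library 2), 0 to 1 for Gcg-only against Ppy-only (1 without Ppy-only library 1), 0 to 0 for Sst-only against Ppy-only, and 0 to 1 for insulin plus another hormone (0 without its library 2). The replicate block changed no call of the 6 genes. Slc2a2 in cells without a hormone was called in the block at an adjusted p of 0.0285, and in 15 of its 23 alternatives in all.

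No called direction of the 6 genes reversed. Over single genes and contrasts, 936 values kept their side of the threshold, 8 passed it newly and 23 lost it. Genes called among all genes with equal cells fell from 3726 to 844 for insulin-only against Gcg-only cells. Over all alternatives but the left-out sums they ran from 1 to 156 for Gcg and Ppy (5), 0 to 64 for Sst and Ppy (2) and 42 to 767 for insulin plus another hormone (371). With all UMIs as totals, the median of all genes shifted by up to -0.68 (insulin-only against Sst-only). The share of calls that were higher then became 23.1%, 6.78% and 36.4% for insulin-only against Gcg-only, Sst-only and Ppy-only cells (50.5%, 50.2% and 48.9% with TMM), 16.4% and 73.5% for Gcg-only against Sst-only and Ppy-only (46.9% and 48.4%), 93.2% for Sst-only against Ppy-only (52.3%), 73.4% without a hormone (58.8%) and 96.6% for insulin plus another (80.9%). Library totals without TMM gave 36.2%, 36.5% and 62.6% in the contrasts with Sst-only cells. The 5% threshold could not be fitted for insulin plus another hormone, with too few cells. Leaving out a whole library leaves no residual degrees of freedom.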
